A study of Mus musculus with 63 samples.

Results

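The Slc25 family is the largest family of transport proteins of the mitochondrial inner membrane, and its genes were followed here in mouse embryonic stem cells with and without the histone enzymes Jmjd1a and G9a, under normal and low oxygen. The members were all genes on the array whose symbol is Slc25a followed by a number. There were 39 of them among the 16593 genes with a probe, and 26 of the 39 were among the 8740 genes with enough signal to be tested. Membership rested on gene names only and used no measured value.

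The study asked what Jmjd1a (gene symbol Kdm3a, which removes methyl groups from lysine 9 of histone H3) and G9a (gene symbol Ehmt2, which adds them) contribute in stem cells, at normal and at low oxygen. It comprised 63 cultures of 7 lines of TT2 embryonic stem cells, a line of C57BL/6 by CBA origin that the labels give as male, grown with serum and leukaemia inhibitory factor. Every line was plated at 200000, 400000 and 600000 cells per 6 cm dish and, 18 h on, was kept for 24 h at 21% oxygen (normoxia), for 20 h at 21% with a last 4 h at 1% (4 h hypoxia), or for the full 24 h at 1% (24 h hypoxia), with 1 culture for each density and exposure. RNA from each culture was hybridised to an Illumina mouse array, a chip that reads each transcript with 1 or more short probes. The wild-type group held WT1 and WT2, the Jmjd1a knockout group JMJD1a KO1 and KO2, and the G9a knockout group G9a KO1 and KO2, with 6 cultures of 2 lines per exposure in each. The reconstituted group was a single line, G9a KO1 carrying a G9a transgene, with 3 cultures per exposure. The labels do not give the transgene's promoter, the deleted exons or the number of clones behind a line. Cultures of 1 line differ in density and share their origin, so the p-values measure the spread between cultures and lines of this study.

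Mitochondrial carriers fold into a common barrel of 6 membrane-spanning helices and move small molecules, one kind per carrier or few, between the cytosol and the mitochondrial matrix. Through them the matrix receives phosphate, ADP, nucleotides, amino acids, cofactors and iron, and gives back ATP, citrate and other products. Stem cells draw on these exchanges for respiration, nucleotide synthesis and one-carbon metabolism, and low oxygen moves cells from respiration towards glycolysis.

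Values are log2 intensities, and differences are log2 differences ± SE from limma with two-sided p-values adjusted (Benjamini-Hochberg) over 8740 genes. A member is called where the adjusted p is under 0.05. The deposited intensities stop at a floor of 20, which is 4.32 on the log2 scale, and between 40.33 and 46.38% of probes per array were above it. Array totals lay between 6974757 and 8408782 and shifted at every eighth array of the deposited order. These 8 array sets explained 98.6% of the first principal component, which held 56.5% of the variance, and exposure 0.693% of it. The second component (9.67% of the variance) followed exposure, which explained 74.3% of it. The set was therefore a term in the fit. A set held at most 2 lines, no set held wild-type with G9a knockout arrays, and G9a KO1 and the reconstituted line had no exposure in a shared set, so genotype differences rest on links through intermediate lines. Kdm3a was at the floor in all 18 Jmjd1a knockout cultures and between 10.08 and 10.75 in wild-type normoxia. Ehmt2 was above the floor in G9a knockout normoxia, at 7.43 to 8.03 against 8.45 to 8.94 in wild-type. The position of its probe relative to the deletion is not given, so that probe checks nothing. WT2 stood apart from the label in 1 respect, since the Y-linked gene Eif2s3y read from 4.32 to 5.52 in its 9 cultures and from 7.16 to 9.23 in those of the other lines. Some of the results that rest on WT2, though not all, are therefore also given without it. All 11 embryonic stem cell markers examined were above the floor in every culture. Of the 9 feeder markers, Col1a2, Col3a1, Postn, Lum, Dcn and Pdgfrb were at the floor in all wild-type normoxia cultures, as were Gata4, Sox17 and Pdgfra of primitive endoderm. The other feeder markers, and any others of primitive endoderm, are not given here, so these values do not show that either cell type was absent. Among 15 known hypoxia-inducible genes, 14 were tested and 13 rose in wild-type cells at 24 h, with a median of 1.07, led by Adm at 3.96 ± 0.25 and Ndrg1 at 3.32 ± 0.26.

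Of the 39 members, 18 were above the floor on all 63 arrays. The 7 tested nucleotide and phosphate carriers, of 9 on the array, included the ADP/ATP carrier Slc25a5, whose probe ran from 13.28 to 13.80, and the phosphate carrier Slc25a3, from 11.53 to 12.72. The tested members also included 3 of 4 carboxylate carriers, 6 of 8 amino acid carriers, 7 of 8 carriers of cofactors, iron, carnitine or glutathione, and 2 of 3 relatives of the uncoupling proteins. Only Slc25a45 was tested among the 7 members for which no substrate is given here. The 13 untested members comprised 9 at the floor on every array, namely Slc25a18, Slc25a21, Slc25a27, Slc25a29, Slc25a31, Slc25a34, Slc25a46, Slc25a48 and Slc25a53. The other 4 were above it on few arrays, Slc25a35 on 1, Slc25a41 on 2, Slc25a42 on 3 and Slc25a47 on 7. Among the tested members, Slc25a40 was above the floor on 7 arrays, Slc25a22 on 12, Slc25a45 on 30 and Slc25a30 on 45.

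In wild-type cells kept for 24 h at 1% oxygen, Slc25a45 rose and Slc25a36 fell by the largest amounts of the 26 tested members. Slc25a45 passed the signal filter only through hypoxic cultures, so its place among the tested members depends on its rise. Slc25a15 and Slc25a30 also rose, while carriers of phosphate, iron, glutathione and carnitine fell by smaller amounts. In all, 7 members were higher and 11 lower than in normoxia. The background over all tested genes was 17.9% higher and 18% lower. The 4 h and 24 h comparisons share their normoxic cultures. The median difference over the members was 0.0042 and that over all genes -0.0031. In these bulk cultures, fewer cells of a type and less RNA per cell cannot be told apart. The summed level of the embryonic stem cell markers was 14.96 to 15.18 at 24 h against 15.30 to 15.42 in normoxia, and the part of that shift in the carrier differences was not tested.

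**Figure D1:**
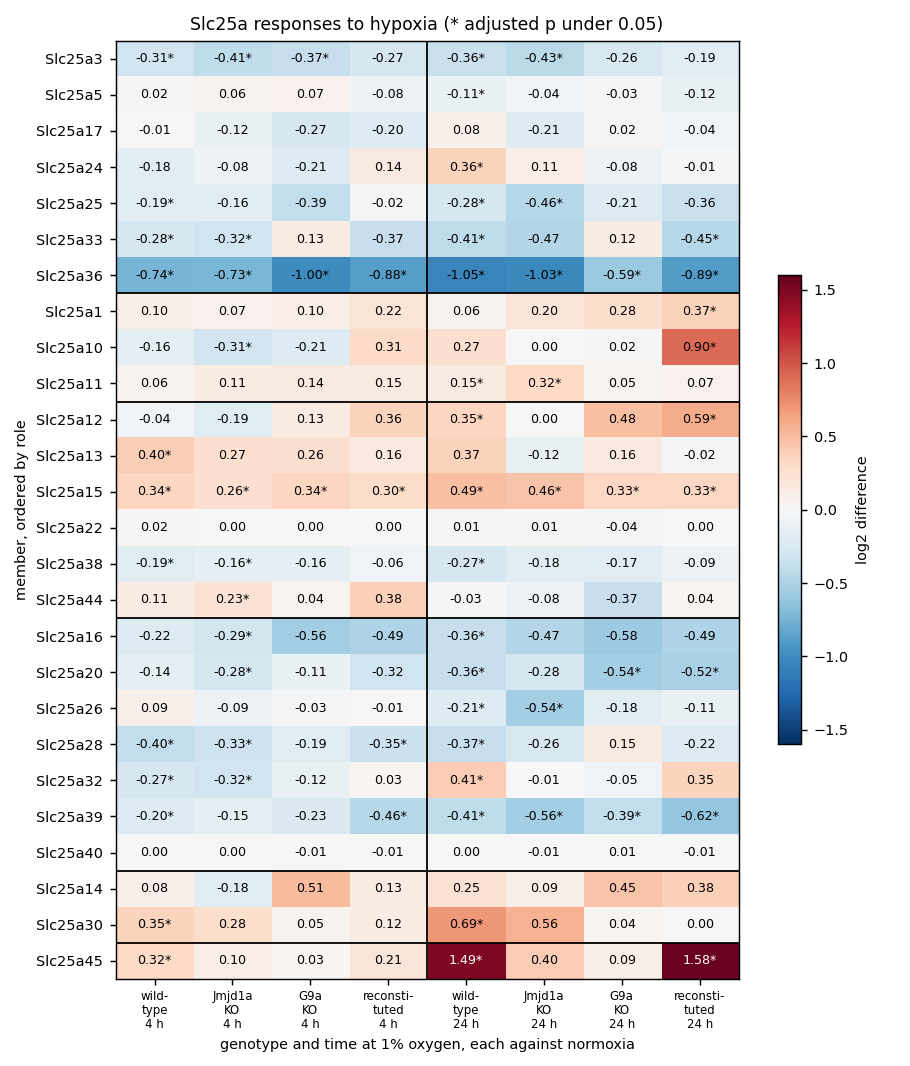
Log2 differences between hypoxia and normoxia for the 26 tested members (rows, ordered by role, with horizontal lines between roles) in the 4 genotypes (columns), at 4 h on the left and at 24 h on the right; colour and number give the difference, an asterisk marks an adjusted p under 0.05, and KO stands for knockout. Slc25a36 is lower and Slc25a15 higher with an asterisk in all 8 columns. At 24 h the fitted rise of Slc25a45 is 1.49 in wild-type, 1.58 in reconstituted, 0.40 in Jmjd1a knockout and 0.09 in G9a knockout cells. The floor limits these Slc25a45 values, and before adjustment for set the rise in the Jmjd1a knockout was at least 0.46.

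Slc25a36, a carrier shown in human cells to exchange pyrimidine nucleotides, which are needed for mitochondrial RNA and DNA, gave the largest decrease. The gene lies at chr9:97075281-97111041 (GRCm38.p6). In wild-type normoxia the 6 cultures ran from 7.88 to 8.30 with a median of 8.11. After 4 h they ran from 6.95 to 7.72 with a median of 7.38, and after 24 h from 6.92 to 7.39 with a median of 7.00. Neither hypoxic range overlapped the normoxic one. The difference was -0.74 ± 0.07 at 4 h (adjusted p = 6.6e-12) and -1.05 ± 0.09 at 24 h, a 2.07-fold decrease (adjusted p = 1.92e-13). Between 4 h and 24 h it fell by a further 0.32 ± 0.09 (adjusted p = 0.00551). At both times its mean was lower than in normoxia in all 7 lines, by 0.53 to 1.25 at 24 h and by 0.52 to 1.17 at 4 h before adjustment for array set.

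Slc25a33, the other pyrimidine nucleotide carrier of the family, also fell in wild-type cells, by 0.28 ± 0.08 at 4 h (adjusted p = 0.0062) and by 0.41 ± 0.10 at 24 h (adjusted p = 0.00135). Its 6 cultures ran from 7.76 to 8.55 in normoxia and from 7.56 to 8.12 at 24 h, so the ranges overlapped. The phosphate carrier Slc25a3, which brings in the phosphate for ATP synthesis and also carries copper, fell by 0.31 ± 0.05 at 4 h (adjusted p = 1.47e-06) and by 0.36 ± 0.06 at 24 h (adjusted p = 7.75e-06). Those are values of its brighter probe, and the other gave -0.0006 at 24 h. The ADP/ATP carrier Slc25a5 ran from 13.50 to 13.57 in normoxia and from 13.38 to 13.46 at 24 h. These ranges did not overlap, and the decrease was small, 0.11 ± 0.04 (adjusted p = 0.015). That call was lost without either wild-type line (adjusted p = 0.227 without WT1 and 0.0735 without WT2) and with unscaled values (-0.03, adjusted p = 0.638). The calcium-regulated ATP-Mg/phosphate carriers moved apart at 24 h, with Slc25a25 at -0.28 ± 0.08 (adjusted p = 0.00753) and Slc25a24 at 0.36 ± 0.14 (adjusted p = 0.0322). The call of Slc25a24 was lost without the array set term (0.24, adjusted p = 0.0995) and without either wild-type line, and its other probes gave 0.34 and -0.0055. Without WT1 the calls of Slc25a33 (adjusted p = 0.0696), Slc25a3 (0.052) and Slc25a25 (0.156) at 24 h were lost as well. The seventh tested member of this role, the peroxisomal carrier Slc25a17, was not called. By role, then, 5 of the 7 tested nucleotide and phosphate carriers were lower and 1 was higher at 24 h. Of all 8740 tested genes, 1571 were lower and 1564 higher. Among these lower carriers only the call of Slc25a36 was kept without WT1, and the roles were chosen with earlier results of these data known.

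Slc25a15, the ornithine/citrulline carrier of the urea cycle (chr8:22375550-22398621), rose at both times. Its 6 wild-type cultures ran from 8.38 to 8.86 in normoxia with a median of 8.63. At 4 h they ran from 8.72 to 9.26 with a median of 8.97, and at 24 h from 8.94 to 9.34 with a median of 9.07. The 24 h range lay wholly above the normoxic one, while the 4 h range overlapped it. The difference was 0.34 ± 0.05 at 4 h (adjusted p = 2.72e-07) and 0.49 ± 0.06 at 24 h, a 1.40-fold increase (adjusted p = 1.98e-08). A second, dimmer probe for the gene gave 0.41 at 24 h (adjusted p = 0.00269) and 0.0039 at 4 h (adjusted p = 1), so the 4 h rise was read by the brighter probe alone. Line by line the brighter probe was higher in all 7 lines at both times, by 0.22 to 0.57 at 24 h and by 0.22 to 0.48 at 4 h.

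Among the other amino acid carriers, Slc25a12 and Slc25a13 exchange aspartate for glutamate in the malate-aspartate shuttle. Slc25a12 rose by 24 h (0.35 ± 0.10, adjusted p = 0.00717), with no call at 4 h (-0.04), and without WT1 the 24 h call was lost (0.20, adjusted p = 0.414). Slc25a13 was called at 4 h (0.40 ± 0.12, adjusted p = 0.00953) and not at 24 h (0.37, adjusted p = 0.0545). Its level differed between array sets. In WT1 at 24 h the 2 cultures of the first set read 7.34 and 7.49 and the culture of the second set read 4.32, and without the set term the 4 h difference had an adjusted p of 0.652. The 4 h call was also lost without WT1 (adjusted p = 0.0521), without WT2 (0.0714) and in the mean over probes (0.15, adjusted p = 0.195). The other Slc25a13 probe gave -0.10 at both times, with no call, and in the Jmjd1a knockout it fell, by 0.49 at 4 h (adjusted p = 0.000133) and by 0.90 at 24 h (adjusted p = 0.00347). Slc25a38, a glycine carrier needed for heme synthesis, ran from 10.00 to 10.21 in normoxia and from 9.81 to 9.98 at 24 h. The 2 ranges did not overlap, and the decrease was 0.27 ± 0.06 (adjusted p = 0.000352), although its 2 other probes, at -0.18 and -0.08, were not called, nor was the difference without WT1 (adjusted p = 0.106). The glutamate carrier Slc25a22, at the floor in 5 of 6 normoxic cultures, and the branched-chain amino acid carrier Slc25a44 were not called. Of the 6 tested amino acid carriers, then, 2 were higher and 1 lower at 24 h, beside 1564 and 1571 of all 8740 genes.

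The carriers of cofactors, iron, carnitine and glutathione held 5 lower members and 1 higher among 7 tested at 24 h. Beside them, 1571 of all 8740 genes were lower and 1564 higher. Slc25a39, which imports glutathione, ran from 8.71 to 9.23 in normoxia, from 8.51 to 9.0 at 4 h and from 8.30 to 8.89 at 24 h. The ranges overlapped through 1 culture of WT1 at 24 h (8.89), the one in the second array set, and the difference was -0.20 ± 0.06 at 4 h (adjusted p = 0.00411) and -0.41 ± 0.07 at 24 h (adjusted p = 1.37e-05). Slc25a28, known as mitoferrin-2, an importer of iron, fell by 0.40 ± 0.05 at 4 h (adjusted p = 1.14e-08) and by 0.37 ± 0.06 at 24 h (adjusted p = 6.66e-06). Slc25a20, which carries acylcarnitines for fatty acid oxidation, ran from 9.15 to 9.47 in normoxia and from 8.71 to 9.09 at 24 h without overlap. Its decrease was 0.36 ± 0.07 (adjusted p = 0.00011), while its other 2 probes gave -0.87 and -0.01, the latter with no call. Slc25a16, linked to coenzyme A, fell by 0.36 ± 0.12 (adjusted p = 0.0182), and Slc25a26, which imports S-adenosylmethionine, by 0.21 ± 0.08 (adjusted p = 0.0428). Without WT2 the difference of Slc25a16 was -0.16 (adjusted p = 0.499) and without WT1 -0.73 (adjusted p = 0.00659), and the call of Slc25a26 was lost without either line. Slc25a40, the relative of Slc25a39, was at the floor in all 18 wild-type cultures and has no measured difference.

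Slc25a32, the carrier for folate and FAD, was the one member called in opposite directions at the 2 times in wild-type cells. Its 6 cultures ran from 5.73 to 6.09 in normoxia, from 5.42 to 5.95 at 4 h and from 6.09 to 6.53 at 24 h. The 24 h range lay above the normoxic one and the 4 h range overlapped it. The difference was -0.27 ± 0.08 at 4 h (adjusted p = 0.00964) and 0.41 ± 0.10 at 24 h (adjusted p = 0.00185), and between the times it rose by 0.68 ± 0.10 (adjusted p = 3.31e-06). Without WT1 neither difference from normoxia was called (adjusted p = 0.0518 at 4 h and 0.0848 at 24 h), and without WT2 the one at 4 h was not (adjusted p = 0.222). In all, 10 members differed between 24 h and 4 h in wild-type cells, 5 higher and 5 lower, against 25.3% of all genes. Beside Slc25a32 the higher ones were Slc25a45 (1.17 ± 0.11), Slc25a24 (0.55 ± 0.14), Slc25a10 (0.43 ± 0.13) and Slc25a12 (0.39 ± 0.10), and the lower ones were Slc25a36, Slc25a26 (-0.29 ± 0.08), Slc25a20 (-0.22 ± 0.07), Slc25a39 (-0.20 ± 0.07) and Slc25a5 (-0.13 ± 0.04). The enzymes of mitochondrial and cytosolic folate metabolism that were tested numbered 4, of which Shmt2 rose at 24 h (0.22 ± 0.09) and 3 fell, Shmt1 (-0.49 ± 0.09) and Mthfd2 (-0.39 ± 0.09) most. Of all 8740 tested genes, 1564 were higher and 1571 lower at 24 h than in normoxia.

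Slc25a45, a carrier for which no substrate is given here (chr19:5877801-5885768), gave the largest increase. Testing required all 3 cultures of some line and exposure to be above the floor, which Slc25a45 met only in hypoxia. Its selection for testing is therefore not independent of its rise. In WT1 its 3 cultures, from low to high density, read 4.52, 4.56 and 4.32 in normoxia, 5.19, 5.02 and 5.12 at 4 h, and 5.99, 6.30 and 6.26 at 24 h. In WT2 all 3 normoxic and all 3 4 h cultures were at the floor, and the 24 h cultures read 5.56, 5.39 and 5.55. The 24 h cultures of both lines lay above all 6 normoxic ones. The fitted difference was 1.49 ± 0.11 at 24 h (adjusted p = 5.7e-15). It can understate the change, because 4 of the 6 normoxic cultures were at the floor, and for WT2 alone the change was at least 1.89-fold. The 4 h difference of 0.32 ± 0.09 (adjusted p = 0.00303) came from WT1, since both exposures of WT2 were at the floor, and without WT1 it was 0.

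Slc25a30, a relative of the uncoupling proteins (chr14:75757534-75787037), ran from 4.72 to 5.57 in wild-type normoxia with a median of 5.16 and from 5.45 to 5.98 at 24 h with a median of 5.86. The ranges overlapped at their ends, and the increase was 0.69 ± 0.15 (adjusted p = 0.00019). At 4 h it was 0.35 ± 0.12 (adjusted p = 0.0153), which was lost without either wild-type line (adjusted p = 0.0571 without WT1 and 0.119 without WT2). Slc25a14, the other tested relative, was not called. Of the 3 tested carboxylate carriers, the oxoglutarate/malate carrier Slc25a11 was called at 24 h (0.15 ± 0.06, adjusted p = 0.0454), a call lost without WT1 (adjusted p = 0.188) and not made by its other probes (0.19 and 0.0073), and the citrate carrier Slc25a1 and the dicarboxylate carrier Slc25a10 were not.

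**Figure D2:**
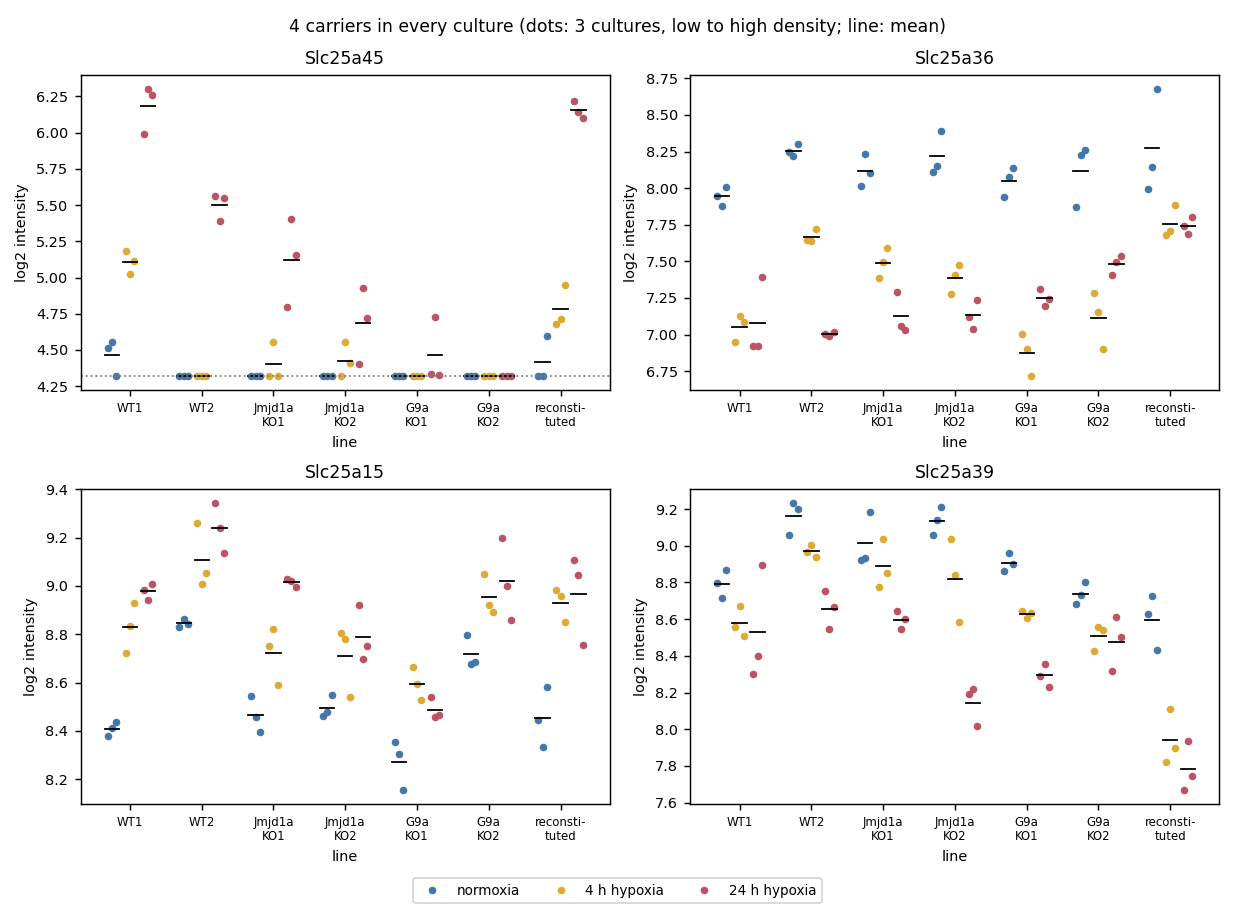
Log2 intensity of Slc25a45, Slc25a36, Slc25a15 and Slc25a39 in every culture of the 7 lines (dots, 3 per line and exposure from low to high density; short black lines, means; dotted line, the floor of 4.32), with blue for normoxia, yellow for 4 h and red for 24 h of hypoxia; each panel has its own vertical axis. Slc25a45 reaches 5.39 to 6.30 at 24 h in wild-type lines and 6.10 to 6.22 in the reconstituted line, and no more than 4.72 in the G9a knockout lines.

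At 4 h, 4 members were higher and 8 lower in wild-type cells, beside 17.9% and 17.7% of all genes, with a median of -0.0247 over the members. Of these 12 calls, 7 were also made without the set term, and of the 18 calls at 24 h, 16 were. Within single sets that held both exposures of a wild-type line, all 18 members called at 24 h kept their sign in WT1 and in WT2. That compares 2 cultures of WT1 and 1 of WT2 at 24 h with 3 normoxic ones of each. The same arrays made the calls, so equal signs are no independent check. The 12 called at 4 h did so in WT1, and 11 of them in WT2, where Slc25a45 was at the floor. Leaving out WT1 gave 9 called members at 24 h and 5 at 4 h, and leaving out WT2 gave 14 and 8. At 4 h the calls lost without WT1 were those of Slc25a45, Slc25a30, Slc25a32, Slc25a33, Slc25a39, Slc25a13 and Slc25a25, and those lost without WT2 were Slc25a30, Slc25a32, Slc25a39, Slc25a13 and Slc25a38. Without WT2 the 24 h difference was 1.70 for Slc25a45, 0.53 for Slc25a15 and -1.0 for Slc25a36, each still called.

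Genes that work beside the carriers were counted for context, from lists chosen by function with earlier results of these data known. Of 12 tested parts of the import machinery that inserts carriers into the inner membrane, 1 rose (Timm8a1, 0.20 ± 0.08) and 4 fell (Tomm6, -0.28 ± 0.06, and Timm10, -0.20 ± 0.07, most) in wild-type cells at 24 h. Of 19 tested enzymes of the citric acid cycle and the malate-aspartate shuttle, 1 rose (Dld, 0.37 ± 0.14) and 5 fell, among them Idh3b (-0.30 ± 0.05) and Got1 (-0.50 ± 0.10), which acts with the aspartate/glutamate carriers. Of 12 genes of heme and iron-sulfur synthesis, 2 rose, Abcb10 (0.61 ± 0.09) and Alas1 (0.37 ± 0.05), and 4 fell, among them Ppox (-0.39 ± 0.11) and Iscu (-0.24 ± 0.06). Among 7 other mitochondrial transporters 1 rose (Letm1, 0.24 ± 0.08), and of the 2 tested proteins of the same fold outside the Slc25a names, Mtch2 fell by 0.33 ± 0.06. Of all 8740 tested genes, 1564 were higher and 1571 lower in this comparison. The lists were counted only and not tested against those shares.

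The promoters of 4 members whose levels changed in hypoxia are shown because hypoxia-inducible factors bind a short DNA element that often has the core ACGTG. The windows are from RefSeq on GRCm38.p6, each 250 bases before to 50 after an annotated start, written 5′ to 3′ on the gene's strand, with each match to ACGTG on either strand in capitals; a CACGTG run, an E-box, matches on both strands and is counted in full. Slc25a36 (chr9:97110992-97111291, minus strand), Slc25a15 (chr8:22398228-22398527, minus strand) and Slc25a30 (chr14:75786988-75787287, minus strand) hold a match, and Slc25a45 (chr19:5877572-5877871, plus strand) holds none.
Slc25a36: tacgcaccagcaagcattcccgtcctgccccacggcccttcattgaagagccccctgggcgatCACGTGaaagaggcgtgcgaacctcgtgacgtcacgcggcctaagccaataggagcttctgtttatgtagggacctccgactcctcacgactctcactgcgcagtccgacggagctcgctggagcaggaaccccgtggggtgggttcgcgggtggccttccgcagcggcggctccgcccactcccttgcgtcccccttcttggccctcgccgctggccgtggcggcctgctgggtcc
Slc25a15: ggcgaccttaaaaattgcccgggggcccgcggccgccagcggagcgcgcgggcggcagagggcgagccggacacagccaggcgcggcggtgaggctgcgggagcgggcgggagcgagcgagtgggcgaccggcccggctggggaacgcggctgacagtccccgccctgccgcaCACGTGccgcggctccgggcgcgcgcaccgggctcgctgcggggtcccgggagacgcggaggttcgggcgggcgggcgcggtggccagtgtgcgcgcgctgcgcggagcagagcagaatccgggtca
Slc25a30: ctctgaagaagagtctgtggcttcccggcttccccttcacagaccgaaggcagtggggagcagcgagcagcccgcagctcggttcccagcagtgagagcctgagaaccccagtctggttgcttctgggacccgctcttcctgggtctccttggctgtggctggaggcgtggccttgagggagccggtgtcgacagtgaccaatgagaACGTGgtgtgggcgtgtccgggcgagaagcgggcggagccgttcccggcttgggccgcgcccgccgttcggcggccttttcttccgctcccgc
Slc25a45: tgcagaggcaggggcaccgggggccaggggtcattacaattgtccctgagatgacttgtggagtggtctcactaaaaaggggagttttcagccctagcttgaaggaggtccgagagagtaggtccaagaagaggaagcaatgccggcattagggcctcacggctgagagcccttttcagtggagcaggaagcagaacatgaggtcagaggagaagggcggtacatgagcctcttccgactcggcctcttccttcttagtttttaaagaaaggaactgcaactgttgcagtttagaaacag

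Slc25a15 has a further annotated start whose window (chr8:22398572-22398871, minus strand) holds no match. Windows were found for 32 of the 39 members, 41 windows in all, and 12 windows of 11 members held ACGTG on either strand, which is 29.3% of member windows beside 19.6% of the 32851 windows of all genes. The tested members with a match were Slc25a1, Slc25a3, Slc25a13, Slc25a14, Slc25a15, Slc25a28, Slc25a30, Slc25a33 and Slc25a36, which include members that rose, fell and were not called. A match is a run of letters and not a binding site, and a window without one says nothing of the factor. No window was used for Slc25a26, Slc25a27, Slc25a32, Slc25a35, Slc25a41, Slc25a44 and Slc25a46.

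In the Jmjd1a knockout, Slc25a36 fell and Slc25a15, by its brighter probe, rose at both times. At 24 h, 2 members were higher and 5 lower than in normoxia, beside 8.74% and 6.98% of all genes. Slc25a36 ran from 8.01 to 8.39 in normoxia and from 7.03 to 7.29 at 24 h without overlap (-1.03 ± 0.16, adjusted p = 6.49e-06). Slc25a15 ran from 8.40 to 8.55 and from 8.70 to 9.03, again without overlap (0.46 ± 0.11, adjusted p = 0.00328). Slc25a39 fell by 0.56 ± 0.13 (adjusted p = 0.00218), Slc25a26 by 0.54 ± 0.15 (adjusted p = 0.00944), Slc25a25 by 0.46 ± 0.15 and Slc25a3 by 0.43 ± 0.11, and Slc25a11 rose by 0.32 ± 0.11. In the mean over probes Slc25a3 (-0.22, adjusted p = 0.108) and Slc25a11 (0.25, adjusted p = 0.102) were not called, the second Slc25a15 probe gave 0.30 with no call (adjusted p = 0.35), and without JMJD1a KO1 the call of Slc25a25 was lost (-0.39, adjusted p = 0.179). This 24 h difference rests on JMJD1a KO2 once array set is in the fit. It depends on 1 culture at 4 h, the only one of that line and time in the fifth array set, where its 24 h cultures lie. For Slc25a3 that culture read 12.40, with the nearest of its group at 12.14. Without the set term 13 members were called, of which 6 were shared with the 7.

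At 4 h in the Jmjd1a knockout, where both lines contributed, 2 members were higher and 9 lower, beside 16.4% and 15.9% of all genes. Slc25a36 fell by 0.73 ± 0.07 (adjusted p = 4.81e-11), Slc25a3 by 0.41 ± 0.05 (adjusted p = 2.08e-08) and Slc25a28 by 0.33 ± 0.05 (adjusted p = 2.17e-06). Slc25a33 and Slc25a32 each fell by 0.32 ± 0.09, and Slc25a10 by 0.31 ± 0.11. The rises were those of Slc25a15 (0.26 ± 0.05, adjusted p = 7.25e-05) and Slc25a44 (0.23 ± 0.07, adjusted p = 0.0123), the latter called with JMJD1a KO1 and KO2 together and not without KO2 (0.12, adjusted p = 0.454). The second Slc25a15 probe gave -0.14 (adjusted p = 0.261) and the mean over probes 0.06 (adjusted p = 0.483). Without JMJD1a KO1 the calls of Slc25a10 (-0.12, adjusted p = 0.711), Slc25a33 (-0.30, adjusted p = 0.106), Slc25a38 and Slc25a16 were lost, and without KO2 those of Slc25a32 (-0.22, adjusted p = 0.159) and Slc25a16. Between 24 h and 4 h, 2 members differed, Slc25a26 (-0.45 ± 0.13) and Slc25a39 (-0.41 ± 0.12), against 15.3% of all genes.

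In the G9a knockout, 1 member was higher and 3 lower at 24 h, beside 10.8% and 8.65% of all genes, and 1 was higher and 2 lower at 4 h, beside 7.15% and 4.87%, shares near the background. Slc25a36 ran from 7.87 to 8.26 in normoxia, from 6.72 to 7.28 at 4 h and from 7.19 to 7.54 at 24 h. Neither hypoxic range overlapped the normoxic one. The difference was -1.0 ± 0.14 at 4 h (adjusted p = 1.14e-06) and -0.59 ± 0.16 at 24 h (adjusted p = 0.00584). Slc25a15 rose by 0.34 ± 0.10 at 4 h (adjusted p = 0.0174) and by 0.33 ± 0.11 at 24 h (adjusted p = 0.0316), a call lost under 6 of its 10 alternatives. In the mean over probes neither Slc25a15 difference was called (adjusted p = 0.214 and 0.163), and its second probe gave 0.10 and 0.18. Slc25a20 fell by 0.54 ± 0.14 at 24 h, Slc25a39 by 0.39 ± 0.13 at 24 h, and Slc25a3 by 0.37 ± 0.10 at 4 h. For Slc25a3 the other probe gave 0.0017, and the call was lost without the set term (-0.19, adjusted p = 0.133), with set as a random block (adjusted p = 0.0769) and in the mean over probes (adjusted p = 0.157). Some dimmer probes fell while the brightest probe of the gene was not called, for Slc25a38 by 0.59 and for Slc25a11 by 0.64 at 24 h. With array set in the fit both times rest on G9a KO1. Of its hypoxic cultures only 1, at 4 h, shared a set with its 3 normoxic ones, so both differences depend on that culture. Between 24 h and 4 h, for which both lines could be used, 10 members differed, 6 higher and 4 lower, against 44.3% of all genes, and Slc25a36 was higher at 24 h than at 4 h by 0.41 ± 0.07 (adjusted p = 1.02e-05). Slc25a12 (0.35 ± 0.09), Slc25a28 (0.34 ± 0.05) and Slc25a17 (0.29 ± 0.07) were also higher, and Slc25a20 (-0.43 ± 0.06) and Slc25a44 (-0.41 ± 0.07) fell most.

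In the reconstituted line, 5 members were higher and 4 lower at 24 h, beside 10.2% and 9.84% of all genes, and 1 was higher and 3 lower at 4 h, beside 8.28% and 7.19%. Slc25a45 read 4.32, 4.32 and 4.60 in normoxia, 4.68, 4.72 and 4.95 at 4 h, and 6.22, 6.14 and 6.10 at 24 h. All 3 exposures were separate, and the 24 h difference was 1.58 ± 0.18 (adjusted p = 7.98e-09). With array set in the fit, every hypoxia difference from normoxia in this line rests on 1 normoxic culture. It was the only one in the same set as the 3 cultures at 4 h and the 3 at 24 h. Slc25a10, the dicarboxylate carrier, rose by 0.90 ± 0.21 (adjusted p = 0.00148), Slc25a12 by 0.59 ± 0.17, Slc25a1 by 0.37 ± 0.12 and Slc25a15 by 0.33 ± 0.10. Slc25a36 fell by 0.89 ± 0.14 (adjusted p = 5.75e-06), Slc25a39 by 0.62 ± 0.12, Slc25a20 by 0.52 ± 0.12 and Slc25a33 by 0.45 ± 0.16, the last with the opposite sign and no call without the set term (0.11, adjusted p = 0.745) and no call without replicate 1 or replicate 2. The other Slc25a1 probe gave -0.25, the mean over probes 0.06 (adjusted p = 0.798), and the call was lost without replicate 1 (adjusted p = 0.0675), so the rise of Slc25a1 rests on its brighter probe. At 4 h Slc25a36 fell by 0.88 ± 0.14, Slc25a39 by 0.46 ± 0.12 and Slc25a28 by 0.35 ± 0.10, and Slc25a15 rose by 0.30 ± 0.10, a call lost without replicate 2 (adjusted p = 0.0709). The second Slc25a15 probe gave 0.62 at 24 h (adjusted p = 0.0096) and 0.39 at 4 h (adjusted p = 0.135). Between 24 h and 4 h, 3 members were higher and 2 lower, against 28.1% of all genes, with Slc25a45 (1.37 ± 0.12) and Slc25a10 (0.59 ± 0.15) the largest rises and Slc25a25 and Slc25a44 the falls (both -0.34 ± 0.10).

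Over the 4 genotypes, 1 of the 26 tested members was called higher in each of them at 24 h (Slc25a15) and 2 were called lower in each (Slc25a36 and Slc25a39), beside 2.84% and 1.51% of all genes. At 4 h, 1 was higher (Slc25a15) and 1 lower (Slc25a36) in each, beside 3.8% and 1.67%. The calls of Slc25a15 are those of its brighter probe, and its second probe was called in wild-type and reconstituted cells at 24 h and in no other of these 8 comparisons. No member was called in opposite directions in a pair of genotypes at the same time, beside 0.618% of all genes at 24 h and 0.183% at 4 h, and 4 members, Slc25a14, Slc25a17, Slc25a22 and Slc25a40, were called in none at either time, beside 31.7%. Slc25a16, Slc25a20 and Slc25a39 were lower in all 7 lines at both times before adjustment for set, with or without a call.

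The 24 h response itself differed from the wild-type one for Slc25a45 in both knockouts, in a test over cultures and not over lines. In JMJD1a KO1 the normoxic cultures were at the floor and the 24 h cultures read 4.80, 5.40 and 5.16, and in JMJD1a KO2 they read 4.40, 4.93 and 4.72. In G9a KO1 the 24 h cultures read 4.33, 4.72 and 4.33, and in G9a KO2 all 9 cultures were at the floor. The response minus the wild-type one was -1.09 ± 0.23 in the Jmjd1a knockout (adjusted p = 0.00763) and -1.40 ± 0.23 in the G9a knockout (adjusted p = 6.26e-05). The first had an adjusted p of 0.0508 with a block for line and density, and both are limited by the floor. Before adjustment for set, the 24 h rise was at least 0.71 in JMJD1a KO1, 0.20 in JMJD1a KO2 and 0.10 in G9a KO1. In WT2 it was at least 0.92. With array set in the fit, each knockout response depends on 1 culture at 4 h, of JMJD1a KO2 and of G9a KO1. With lines as the unit, the 24 h level of Slc25a45 in the Jmjd1a knockout was not called against wild-type (-1.23, adjusted p = 0.126). That of the G9a knockout was called (-1.70, adjusted p = 0.0082), though not without the set term. Slc25a45 was the only member called in the Jmjd1a test, where 0.778% of all genes were. In the G9a test, where 4.22% were, Slc25a28 was the other, with a difference of 0.51 ± 0.13 (adjusted p = 0.0117) that had an adjusted p of 0.387 without the set term.

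Between genotypes at the same exposure, the G9a knockout lines had lower Slc25a44 than the wild-type lines. Slc25a38 was called lower and Slc25a11 higher, with calls that single lines decided. The unit of this test is the line, 2 against 2, on line means taken from the fit with array set. Error in the set links that both lines of a genotype share is not counted, so its SE and p-values can be too small. In normoxia 2 members were higher and 4 lower, beside 25.5% of all genes called in either direction. At 4 h there were 3 higher and 5 lower, beside 28.3%, and at 24 h 5 higher and 8 lower, beside 34%. The counts in normoxia and at 4 h are near these shares. They rest on the array sets as well as the lines, since 4 of 6, 5 of 8 and 1 of 13 calls were also made, with the same sign, without the set term. Without G9a KO1, limma called 5 members in normoxia, 1 at 4 h and 3 at 24 h, and without G9a KO2 it called 0, 1 and 1. Without WT2 it called 6, 3 and 8. The summed trophectoderm markers were lower in G9a knockout normoxia, 9.48 to 10.76 against 11.07 to 11.86 in wild-type, with Elf5 and Cdx2 at the floor in both, and their part in these differences was not tested.

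Slc25a44, a carrier of branched-chain amino acids (chr3:88410494-88425141), differed most. In normoxia its wild-type cultures ran from 6.00 to 6.64 with a median of 6.32, and the Jmjd1a knockout ones from 6.00 to 6.39. The G9a knockout cultures ran from 4.36 to 5.00 with a median of 4.61, close to the floor, and the reconstituted ones read from 5.91 to 6.19. No G9a knockout culture overlapped any of the other 3 groups at any exposure. The difference from wild-type was -1.49 ± 0.18 in normoxia (adjusted p = 0.00793), -1.56 ± 0.19 at 4 h (adjusted p = 0.00752) and -1.83 ± 0.14 at 24 h (adjusted p = 0.00213). It was -1.65, -1.55 and -1.81 without the set term, with a call each time. Without WT2 it was -1.02, -1.08 and -1.35, with an adjusted p of 0.0618 at 4 h and a call at the other exposures. Without G9a KO2 the call in normoxia was lost (-1.26, adjusted p = 0.0603), and the calls at 24 h were made with any 1 line left out.

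**Figure D3:**
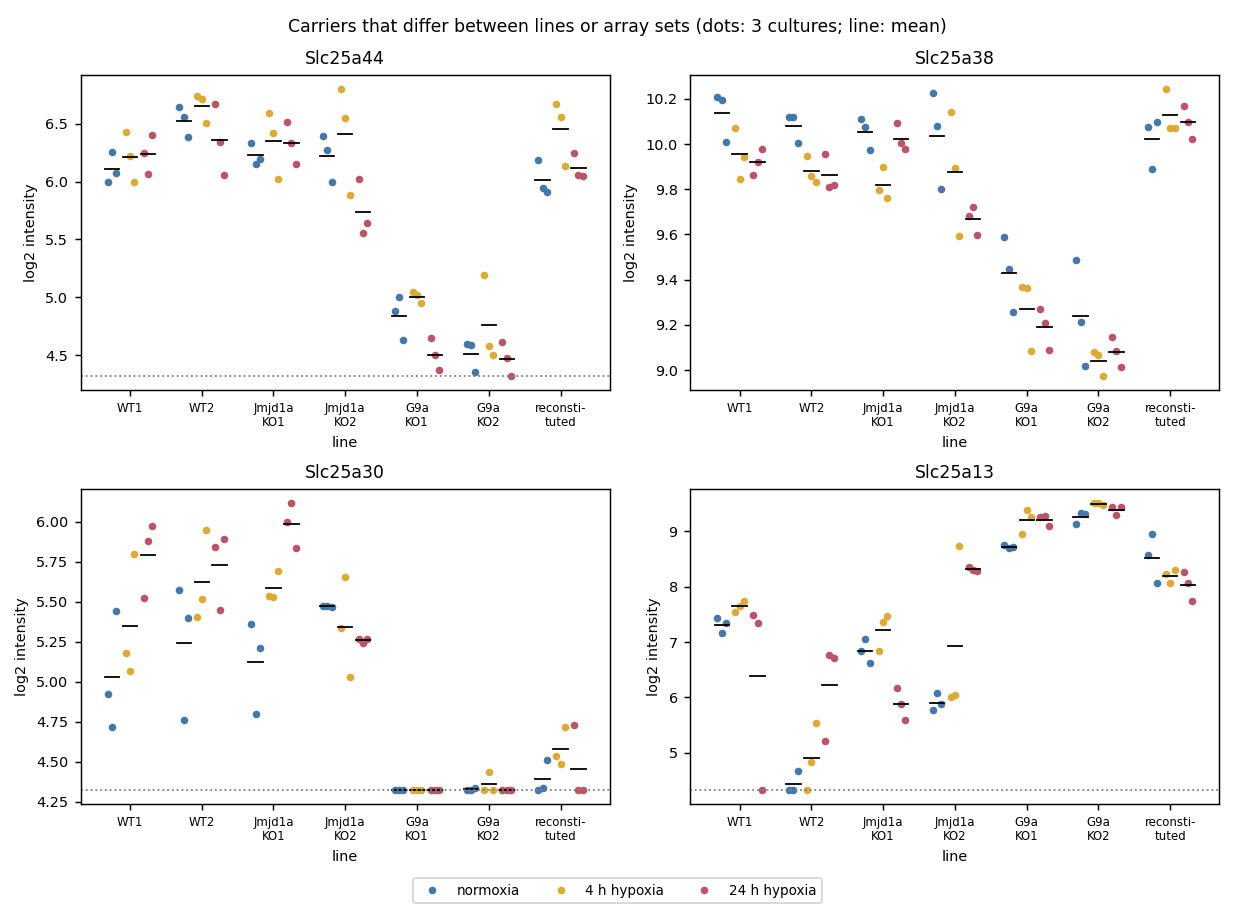
Log2 intensity of Slc25a44, Slc25a38, Slc25a30 and Slc25a13 in every culture of the 7 lines (dots, 3 per line and exposure; short black lines, means; dotted line, the floor of 4.32), coloured by exposure, each panel with its own vertical axis. The G9a knockout cultures of Slc25a44 lie between 4.32 and 5.19 and the reconstituted ones between 5.91 and 6.67, while Slc25a13 jumps within WT1, WT2 and JMJD1a KO2, where cultures of a line fall in different array sets.

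Set against its parent line, the reconstituted line had higher Slc25a44 by 1.12 ± 0.26 at 4 h (adjusted p = 0.00341) and by 1.19 ± 0.24 at 24 h (adjusted p = 0.000914), and by 0.79 in normoxia, where no call was made. Slc25a38 ran from 10.00 to 10.21 in wild-type normoxia, from 9.02 to 9.59 in G9a knockout normoxia and from 9.89 to 10.10 in the reconstituted line. The knockout range lay below both others. Its difference from wild-type was -0.86 ± 0.15 in normoxia (adjusted p = 0.0162), -0.83 ± 0.15 at 4 h and -0.77 ± 0.13 at 24 h, and the reconstituted line was above its parent by 0.66 ± 0.18 at 4 h (adjusted p = 0.0132) and 0.64 ± 0.17 at 24 h (adjusted p = 0.0103). The Slc25a38 calls against wild-type in normoxia and at 4 h were lost with any 1 line left out, and the call at 24 h with any but WT1 (without WT2, adjusted p = 0.0723, 0.087 and 0.097 in turn), and the 2 calls against the parent were lost when arrays were only shifted to a common median (adjusted p = 0.129 and 0.137). Slc25a45 at 24 h was higher in the reconstituted line by 1.55 ± 0.31 (adjusted p = 0.000575), and Slc25a14, the relative of the uncoupling proteins, by 1.42 ± 0.37 (adjusted p = 0.0102). This is 1 line against 1 line, with 3 cultures each. At every exposure it also depends on the 1 culture of G9a KO1 at 4 h that shared an array set with its normoxic ones. The fit further takes G9a KO2 to respond to hypoxia as G9a KO1 does. At 4 h and 24 h the comparison depends as well on the 1 normoxic culture that links the array sets of the reconstituted line.

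The counts for that comparison were 1 member in normoxia, 3 at 4 h and 5 at 24 h, all higher, beside 3.83%, 7.15% and 7.08% of all genes. Slc25a40 accounts for the call in normoxia and for 1 each at 4 h and 24 h. Its probe was above the floor on 7 arrays. In normoxia G9a KO1 was at the floor and the reconstituted cultures read from 4.32 to 4.71, at 4 h all 6 cultures were at the floor, and at 24 h the only one above it, at 4.40, was of G9a KO1, so these calls come with no measured increase at 4 h or 24 h.

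Slc25a11, the oxoglutarate/malate carrier of the malate-aspartate shuttle, ran from 9.68 to 9.90 in G9a knockout normoxia and from 8.66 to 9.07 in wild-type with no overlap (1.21 ± 0.24, adjusted p = 0.0213). The difference was 1.29 ± 0.17 at 4 h and 1.11 ± 0.22 at 24 h. At all 3 exposures the Slc25a11 call was made without WT1 and lost without any other line. Without WT2 the values were 0.28 in normoxia, 0.20 at 4 h and 0.16 at 24 h, and without G9a KO1 they were 0.79, 0.17 and -0.03. At 24 h it was also lost without the set term (0.70, adjusted p = 0.0734). Slc25a25 ran from 5.58 to 6.07 in G9a knockout normoxia and from 6.22 to 6.72 in wild-type, again without overlap (-0.68 ± 0.15, adjusted p = 0.0271). That call of Slc25a25 was made without WT2 and lost without any other line. Slc25a10 differed by -1.26 ± 0.28 in normoxia and by -1.52 ± 0.26 at 24 h, and neither was called without the set term (-0.67, adjusted p = 0.0752, and -1.05, adjusted p = 0.103). In normoxia the Slc25a10 call was lost with any 1 line left out (-1.19 to -0.60), and at 24 h with any but WT1 (-1.43 to -0.91). Slc25a13 was called higher in normoxia (1.08 ± 0.17) and at 4 h (0.94 ± 0.22), and its difference was 3.12 and 3.08 without the set term, neither called. Without G9a KO2 it was not called in normoxia (0.98, adjusted p = 0.101), and at 4 h the mean over probes was not called (0.42, adjusted p = 0.155). Slc25a33 was called higher at 4 h with the set term (0.75 ± 0.14) and lower without it (-0.63, adjusted p = 0.035), so no direction can be given for it.

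**Figure D4:**
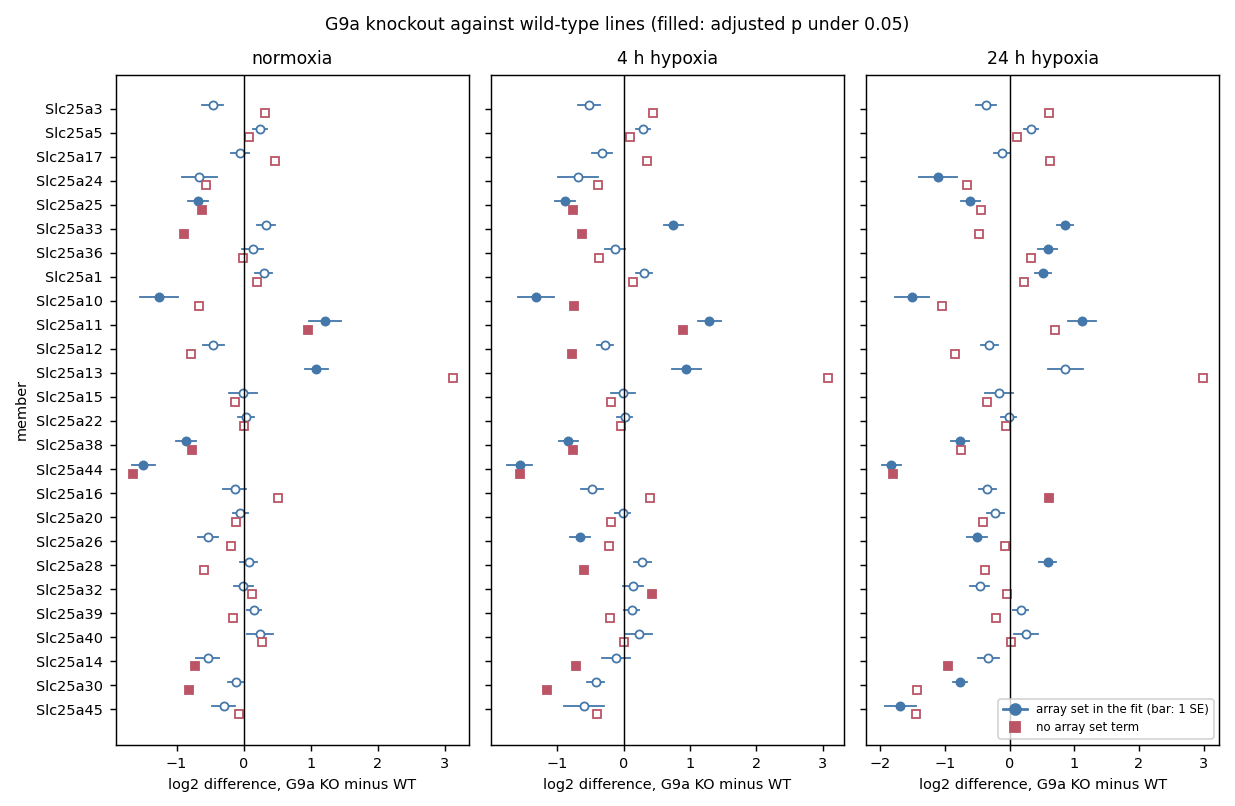
Log2 difference between the G9a knockout and wild-type lines for the 26 tested members at each exposure, with array set in the fit (blue circles, bars of 1 SE) and without it (red squares); filled symbols have an adjusted p under 0.05. Slc25a44, Slc25a38 and Slc25a25 lie left of 0 and Slc25a11 right of 0 in both fits at every exposure, while Slc25a33, Slc25a28 and Slc25a3 change sides between the fits.

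At 24 h the further G9a calls were Slc25a45 (-1.70 ± 0.24), Slc25a24 (-1.11 ± 0.29), Slc25a30 (-0.76 ± 0.11), Slc25a26 (-0.50 ± 0.15), Slc25a33 (0.86 ± 0.13), Slc25a36 (0.59 ± 0.15), Slc25a28 (0.59 ± 0.13) and Slc25a1 (0.51 ± 0.13), none of them called without the set term. The calls of Slc25a28, Slc25a26 and Slc25a1 were lost with any 1 line left out. Those of Slc25a45 and Slc25a24 were lost without either G9a knockout line, and that of Slc25a33 without either of these or WT2. That of Slc25a36 was lost without WT1 or G9a KO2, and that of Slc25a30 without G9a KO2. Without the set term Slc25a33 and Slc25a28 had the opposite sign (-0.47 and -0.38), so no direction can be given for them. Slc25a30 was at the floor in all 6 G9a knockout cultures at 24 h and between 5.45 and 5.98 in the wild-type ones. These groups share no array set. The reconstituted line did not regain it, with 2 of 3 cultures at the floor and 1 at 4.73.

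No member was called between the Jmjd1a knockout and wild-type lines at any exposure by limma, beside 0.0229%, 0.0114% and 0.0572% of all genes in normoxia, at 4 h and at 24 h. At an unadjusted p under 0.05 there were 1, 4 and 5 members, and without WT2 limma called 3, 1 and 2 after adjustment. The smallest adjusted p among members was 0.25 in normoxia, 0.332 at 4 h and 0.126 at 24 h, and with 2 lines against 2 this does not show that the levels are alike.

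Seeding density moved 9 members. Slc25a33 and Slc25a1 were higher in denser cultures and 7 members lower, beside 18% and 19.8% of all genes. From the lowest to the highest density the fitted change was 0.33 for Slc25a33, which was higher at the highest density in 19 of 21 line-and-exposure combinations, and 0.21 for Slc25a1, the citrate carrier, higher in 20 of 21. Slc25a44 changed by -0.33 and Slc25a20 by -0.30, and each was lower in 19 of 21. Slc25a38 changed by -0.19, also lower in 19 of 21, and Slc25a14 by -0.19, lower in 15. The changes of Slc25a32, Slc25a15 and Slc25a5 were between -0.12 and -0.05. Leaving out single lines ended the call of Slc25a32 for 5 of the 7 lines, that of Slc25a5 for WT1, G9a KO2 or the reconstituted line, and that of Slc25a14 for G9a KO2 or JMJD1a KO1. Slc25a36, which fell most in hypoxia, had no called change with density (0.09).

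**Figure D5:**
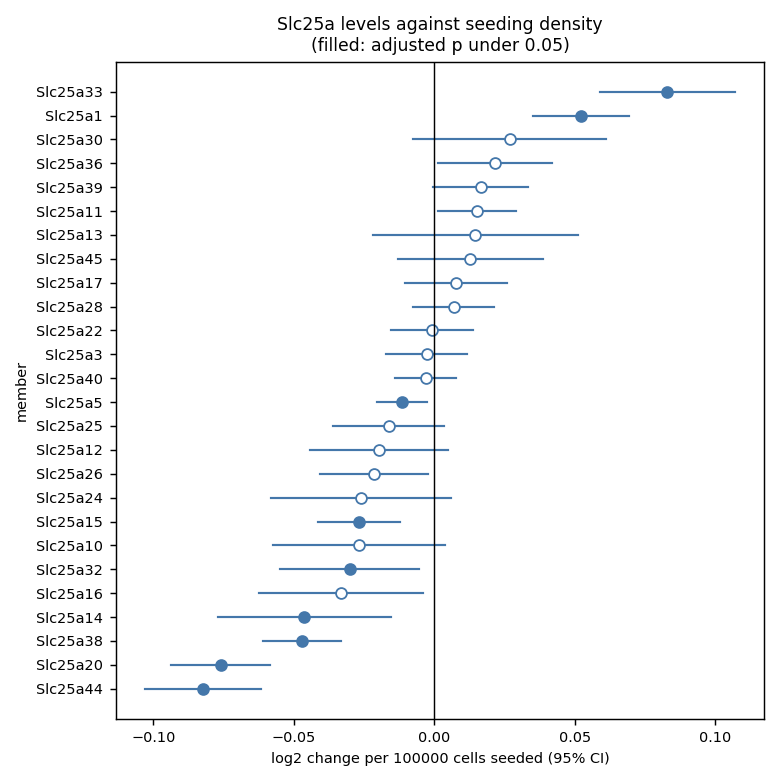
Change in log2 intensity per 100000 cells seeded for the 26 tested members (points, with bars for the 95% confidence interval), from the fit over all 63 arrays; filled points have an adjusted p under 0.05. Slc25a33 (0.08) and Slc25a1 (0.05) lie right of 0, and Slc25a44 and Slc25a20 (both -0.08) lie farthest to the left.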

How the data were processed

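Gene expression was measured on 63 Illumina mouse arrays, each from 1 culture. The authors deposited 1 intensity per probe and array, made in BeadStudio per the submitters' processing notes. The sources used here give neither its version nor its normalization settings. The deposited intensities, for 25697 probes, have a floor at 20. On 1 array a separate plateau at 21.9 held 9339 probes and was set to that floor.

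Values were taken to log2 and quantile normalized, which makes array distributions alike and hides any shift common to all genes. Probes had to exceed the floor in each of the 3 cultures of some line and exposure (12754 did), and the brightest such probe stood for its gene (8740 genes). Probes were named through the platform annotation, with 23978 probes of 1 symbol and 1719 of none, and symbols were updated for the 23962 that matched by Entrez identifier. The number of arrays limits the precision.

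Exposure and density were tested with limma 3.58.1 in R 4.3.3, in 1 fit over all arrays with terms for line, genotype by exposure, density (linear) and array set. Sets are runs of 8 arrays in the deposited order and are not named in the labels. The intended fit with separate exposure terms for each line had 29 columns and rank 27, so the genotype form was used, with 40 residual degrees of freedom. Knockout lines were compared with wild-type lines on line means, 2 against 2, and the difference in the 24 h response was tested over cultures. P-values are two-sided and adjusted over all 8740 genes. The fits were tested on simulated data.

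Same-numbered cultures share a seeding density. The correlation of their deviations from the group means ran from -0.148 to 0.387 over 63 pairs, with a median of 0.174, and with set removed from -0.346 with a median of -0.043, so the numbers were not taken to pair cultures. A companion table holds 126 columns of per-sample values that could not be matched to samples by name and were not used. Promoter windows are from RefSeq (GRCm38.p6).

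The members, their roles and the context and marker lists were chosen with earlier results of these data known. Per comparison, the up to 6 members called higher and 6 called lower with the largest differences were given with values, along with those past the test of a response difference. Slc25a5 falls outside that rule and was named after its values were seen. Other genes were named as label checks or as the 2 largest calls in each direction of a context list. Alternatives were other scalings, filters, probe rules and set terms, a replicate block, and leaving out lines or cultures.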

Additional observations from a re-analysis of the deposited data

Results flagged for a closer look

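The lowest or highest culture of a group stood apart from the others by Dixon's test in 13 of 205 groups of 6 cultures, where chance gives about 1 in 20. In WT1 at 24 h, the culture at the highest density read 7.39 for Slc25a36, with the nearest at 7.02, and 8.12 for Slc25a33, with the nearest at 7.74, and 6.21 for Slc25a10, with the nearest at 5.90. It lies in the second set and the other 2 cultures of that line and exposure in the first. In JMJD1a KO2 at 4 h the culture at the highest density, the only one of its group in the fifth set, read 7.25 for Slc25a33, with the nearest at 7.74, and 12.40 for Slc25a3, with the nearest at 12.14.

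Other such values lay close to the floor of 4.32. Slc25a45 read 4.72 in the middle-density culture of G9a KO1 at 24 h. Slc25a30 read 4.34 in 1 culture of G9a KO2 in normoxia and 4.44 in another at 4 h. Slc25a24 read 4.79 in 1 culture of G9a KO1 in normoxia, and Slc25a40 read 4.40 in 1 of G9a KO1 at 24 h. The remaining values were 9.68 for Slc25a11 in G9a KO1 in normoxia (nearest 9.82), 8.08 for Slc25a1 in WT2 in normoxia (nearest 8.28) and 5.20 for Slc25a14 in JMJD1a KO1 at 4 h (nearest 5.46).

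The 24 h response was compared with that of wild-type cells by the test of the difference itself, over cultures and not over lines. It differed for Slc25a45 in the Jmjd1a knockout (-1.09) and in the G9a knockout (-1.40), and for Slc25a28 in the G9a knockout (0.51).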

How the results depend on the processing

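Of 116 called member differences, tried under 1218 alternatives in all, 952 kept direction and call, 257 lost the call and 9 reversed. For the 68 hypoxia differences these were 609, 114 and 1 of 724. Slc25a36 stayed past the threshold in every alternative in all 8 hypoxia comparisons, and Slc25a45 in wild-type cells at 24 h ranged from 1.27 to 1.70. Unless stated, the cause of a change was not tested.

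Without the set term the members called were 13 rather than 7 (Jmjd1a knockout, 24 h), 12 rather than 2 (Jmjd1a knockout, 24 h against 4 h), 9 rather than 4 and 9 rather than 3 (G9a knockout, 24 h and 4 h), 8 rather than 4 (reconstituted, 4 h), 2 rather than 5 (reconstituted, 24 h against 4 h), 7 rather than 12 (wild-type, 4 h) and 3 rather than 13 (G9a knockout against wild-type, 24 h). For the reconstituted line against G9a KO1 they were 6, 13 and 14 in normoxia, at 4 h and at 24 h rather than 1, 3 and 5. With set as a random block they were 11 and 10 (Jmjd1a knockout, 24 h, and 24 h against 4 h), 8 and 8 (G9a knockout, 24 h and 4 h), and 4, 8 and 8 for the reconstituted line against G9a KO1.

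With only genes above the floor on all arrays, where fewer members are tested, the counts were 8 (G9a knockout against wild-type, 24 h), 1 and 0 (response difference, G9a and Jmjd1a), 5 (G9a knockout, 4 h), 2 (reconstituted, 24 h against 4 h), and 0, 1 and 2 for the reconstituted line against G9a KO1. With no filter they were 0, 1 and 3 for the G9a knockout against wild-type in normoxia, at 4 h and at 24 h, and 5 for the reconstituted line against G9a KO1 at 4 h. That last comparison in normoxia gave 2 with a median shift and 2 with deposited values unscaled. In alternatives chosen after seeing the data, line as the unit gave 13 (G9a) and 10 (Jmjd1a) members with a response difference, and averaged single-line responses gave 5 (G9a knockout, 4 h). For line as the unit the 2 lines of a knockout are not independent, since only JMJD1a KO2 and G9a KO1 have a 24 h response that can be estimated with set. In the 2 Jmjd1a knockout lines Slc25a3 gave -0.4311 and -0.4308, so no conclusion is drawn from the counts of 13 and 10.

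With line and density as a replicate block, the counts were 2 rather than 4 (G9a knockout, 24 h), 4 rather than 7 (Jmjd1a knockout, 24 h) and 0 rather than 1 (Jmjd1a response difference). The wild-type count at 24 h was 18 with the block and without.

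Leaving out each line or culture gave 9 to 14 members in wild-type cells at 24 h, 5 to 8 at 4 h and 2 to 5 between the times, the lowest at 24 h and at 4 h without WT1. It gave 7 to 9 in the Jmjd1a knockout at 4 h, 5 to 8 in the G9a knockout and 2 to 4 in the reconstituted line between the times, and 1 to 2 for the reconstituted line against G9a KO1 in normoxia. Between G9a knockout and wild-type it gave 0 to 6, 1 to 5 and 1 to 8 in normoxia, at 4 h and at 24 h, and between Jmjd1a knockout and wild-type 0 to 3, 0 to 1 and 0 to 2.

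The reversals without the set term were Slc25a33 in the reconstituted line at 24 h (0.11) and in the G9a knockout against wild-type at 4 h (-0.63) and 24 h (-0.47), Slc25a28 in the latter at 24 h (-0.38), and Slc25a40 in the reconstituted line against G9a KO1 in normoxia (-0.032). In the G9a knockout against wild-type with 1 line left out, Slc25a26 ranged at 4 h from -0.64 to 0.11 (reversed without G9a KO1) and at 24 h to 0.08 without WT2 and 0.25 without G9a KO1, and Slc25a11 at 24 h ranged from -0.028 without G9a KO1 to 1.04.

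The floor limits what can be seen of members near it, among them Slc25a45, Slc25a30, Slc25a22 and Slc25a40.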

Other observations

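Slc25a13 had steps between array sets within a line and exposure. In WT1 at 24 h it read 7.49 and 7.34 in the first set and 4.32 in the second, in WT2 at 24 h 5.20 in the second and 6.77 and 6.70 in the third, and in JMJD1a KO2 at 4 h 6.00 and 6.05 in the fourth and 8.74 in the fifth.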
